A study of Arabidopsis thaliana with 6 samples.

Results

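The genes described here are 9 loci of Arabidopsis thaliana that encode factors of cytosolic translation, out of 28141 features measured. They were chosen by their locus codes, with no measured value in the rule, but with earlier results of these data known. Among them are 4 copies of elongation factor eEF1A (AT5G60390, AT1G07920, AT1G07930 and AT1G07940), eEF2 (AT1G56070, also named LOS1), the helicase eIF4A1 (AT3G13920), the cap-binding protein eIF4E (AT4G18040), eIF5A-1 (AT1G13950, ELF5A-1 in the RefSeq annotation) and the poly(A)-binding protein PAB2 (AT4G34110). Whole seedlings of accession Col-0, aged 5 days and kept on MS plates at 23 °C (16 h light, 8 h dark), gave 3 libraries labelled fip37-4 LEC1:FIP37 and 3 labelled wild-type, all from total RNA freed of ribosomal RNA. FIP37 belongs to the complex that places N6-methyladenosine (m6A) on mRNA. The fip37-4 allele disrupts the gene, strong alleles are lethal to the embryo, and the transgene drives FIP37 from the promoter of the embryo gene LEC1 so that seedlings can be obtained. The comparison asks which transcripts differ in such seedlings, and the labels do not say whether the replicates were separate cultures, so the spread between them may be technical.

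In translation, a ribosome is first recruited to the mRNA and then moves along it codon by codon. For recruitment, eIF4E binds the cap at the 5′ end, eIF4G serves as a scaffold, eIF4A unwinds structure near the cap, and poly(A)-binding proteins on the tail contact eIF4G. During elongation, eEF1A delivers each charged tRNA to the ribosome, eEF1B reloads eEF1A with GTP, eEF2 moves the ribosome on, and eIF5A, which carries the modified residue hypusine, helps where peptide bonds form slowly. Plants have a second cap-binding complex, built on eIF(iso)4E and eIF(iso)4G. The eEF1A gene AT5G60390 is widely used as a reference in quantitative PCR of Arabidopsis tissues.

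The libraries can be placed by a few values. FIP37 (AT3G54170), the targeted gene, stood at 80.6, 65.0 and 67.5 FPKM in the libraries labelled fip37-4 LEC1:FIP37 and at 8.99, 9.03 and 8.96 FPKM in wild-type, and these values do not separate transgene from endogenous transcripts. FPKM, the unit inferred from the authors' program and the values, is fragments per kilobase of transcript, scaled to the number of mapped fragments of the library. Chloroplast and mitochondrial loci held 56.9 to 60.1% of the summed FPKM in fip37-4 LEC1:FIP37 and 50.7 to 51.2% in wild-type. All 4 photosynthetic shoot markers rose, and their summed level was 34915 to 40464 FPKM in fip37-4 LEC1:FIP37 and 25197 to 26501 FPKM in wild-type. At a mean above 1000 FPKM, where all 4 lie, 67.3% of 52 nuclear features were called higher, with a median log2 fold change of 0.43. After quantile normalization only 1 of the 4 markers, RBCS1A, was called higher. Of 6 markers of dividing cells, 5 fell and 0 rose. Their summed level was 12.8 to 13.2 FPKM in fip37-4 LEC1:FIP37 and 24.4 to 24.7 FPKM in wild-type. At 0.5 to 5 FPKM 4 of 5 were lower, or 80% beside 16.1% of nuclear features. At 5 to 20 FPKM 1 of 1 was lower, beside 36.3%. Neither difference was tested. The weakest of these calls, CYCB3;1 (adjusted p = 0.0379 by limma), was lost with replicate number as a block. It was also lost on leaving out any 1 library. With quantile normalization all 6 were lower. Root markers went both ways, 1 up and 1 down of 4 tested. CASP1 fell, with a mean of 9.56 FPKM in fip37-4 LEC1:FIP37 and 16.6 FPKM in wild-type. EXPA7 rose, with means of 2.63 and 1.29 FPKM. The sums were 1146 to 1192 FPKM in fip37-4 LEC1:FIP37 and 1140 to 1165 FPKM in wild-type. Nearly all of each sum came from PYK10, at 1132 to 1178 FPKM in fip37-4 LEC1:FIP37 and 1120 to 1144 FPKM in wild-type. Pollen markers, which should be missing from seedlings, summed to at most 0.298 FPKM in any library, with all 4 below the filter and none at 0 in all libraries. The part of these shifts in the results below was not tested, and in such bulk samples fewer cells of a type and less RNA per cell cannot be told apart.

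Transcripts of 8 of the 9 loci were lower in fip37-4 LEC1:FIP37 seedlings and 0 were higher, and only eIF5A-1 did not pass the test. The 8 include all 4 copies of eEF1A, which may share reads. The calls come from limma on log2(FPKM + 0.5) with Benjamini-Hochberg adjustment over all 19383 features tested, at an adjusted p under 0.05. All 9 loci passed the filter on low values of 0.5 FPKM in at least 3 libraries. The log2 fold changes of the 8 ran from -0.998 for eIF4E to -0.19 for PAB2, and the median of the 9 was -0.41 beside -0.0019 for all features tested. Over all features 30.9% were called lower and 27.6% higher. The groups did not overlap for the same 8 loci, as for 65.9% of all features. Lower calls were more frequent at the levels of these genes than over the whole table. Among 723 nuclear features with a mean of 60 to 160 FPKM, where 5 of the 9 loci lie, 64.3% were called lower and the median log2 fold change was -0.36. The shares called lower were 55.8% of 2381 features between 20 and 60 FPKM, where eIF4E lies, and 54.4% of 318 features between 160 and 1000 FPKM, where AT5G60390 and eEF2 lie. After quantile normalization, which forces the same distribution on every library, 3 of the 9 loci were called lower and 1 higher.

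**Figure D1:**
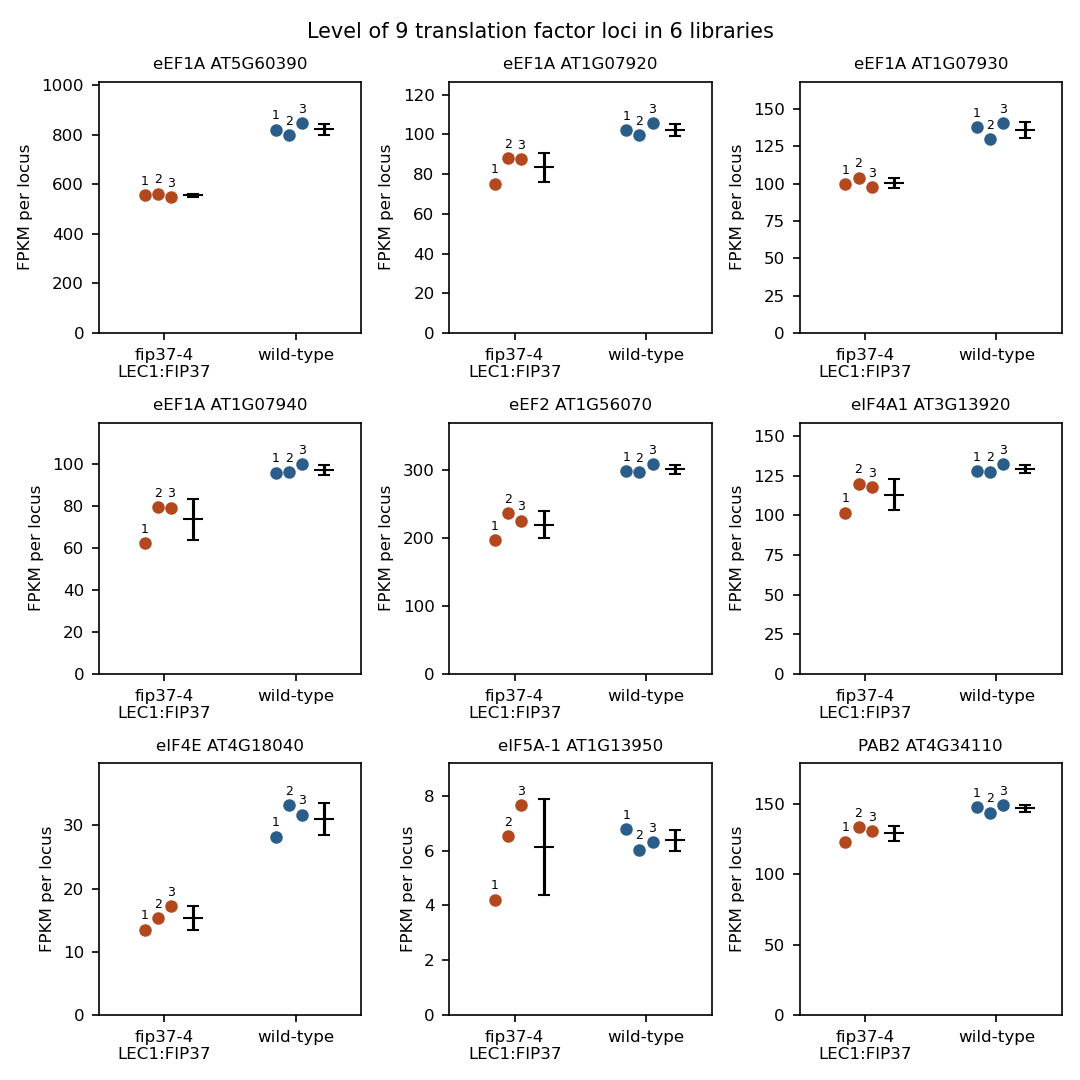
Level of each of the 9 loci in FPKM (y axis, from 0, transcripts of a locus summed), with fip37-4 LEC1:FIP37 on the left and wild-type on the right; each point is a library, numbered by replicate, and the black bar is the mean with the SD. The groups are separate for 8 loci and overlap for eIF5A-1, and replicate 1 is the lowest of the fip37-4 LEC1:FIP37 libraries for 7 of the loci.

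The 4 eEF1A copies were all lower. AT5G60390, the copy with the highest level, had 554.6, 561.8 and 547.3 FPKM in fip37-4 LEC1:FIP37 and 818.8, 798.2 and 844.8 FPKM in wild-type. Every fip37-4 LEC1:FIP37 library lay far under the lowest wild-type library, and the mean fell by 32.4%. Its log2 fold change was -0.56 with an SE of 0.048 (adjusted p = 2.60e-05 by limma), and -0.78 after quantile normalization. On the opposite strand the annotation places an overlapping gene, AT5G60400, which did not exceed 21.3 FPKM in any library. The libraries were made with a strand-specific kit, but no source used here gives the strand setting of the authors' programs. Whether reads of the 2 genes were told apart is therefore not known.

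The other 3 copies lie close together on chromosome 1, and near-identical coding sequences mean that the authors' programs may have divided shared reads among all 4 copies. AT1G07930 had 99.6, 104.0 and 97.7 FPKM in fip37-4 LEC1:FIP37, against 138.0, 129.8 and 140.5 FPKM in wild-type, a log2 fold change of -0.44 with an SE of 0.050 (adjusted p = 0.000126 by limma). The level of AT1G07920 was 75.1, 87.9 and 87.4 FPKM in fip37-4 LEC1:FIP37 and 102.3, 99.5 and 105.6 FPKM in wild-type, a log2 fold change of -0.30 with an SE of 0.067 (adjusted p = 0.00497 by limma). For AT1G07940 the values were 62.2, 79.5 and 79.1 FPKM in fip37-4 LEC1:FIP37 and 95.8, 96.0 and 99.8 FPKM in wild-type, and the log2 fold change was -0.41 with an SE of 0.091 (adjusted p = 0.00506 by limma). Replicate 1 of fip37-4 LEC1:FIP37 was the lowest library for AT1G07920 and AT1G07940, and without it their log2 fold changes were -0.22 and -0.29, still called. After quantile normalization the 3 calls were lost, with log2 fold changes of -0.12 for AT1G07930, -0.0072 for AT1G07920 and -0.11 for AT1G07940.

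Summed over the 4 copies, eEF1A held 792, 833 and 812 FPKM in fip37-4 LEC1:FIP37 and 1155, 1124 and 1191 FPKM in wild-type. The sum depends little on how shared reads were divided, since the main transcripts of the copies are all 1826 to 1905 nt long in the annotation, and it carries no test of its own. The mean was 0.702 of the wild-type mean, and the groups were far apart. AT5G60390 supplied 67.4 to 70.1% of the sum in fip37-4 LEC1:FIP37 and 70.9 to 71.0% in wild-type, so its share was lower in every fip37-4 LEC1:FIP37 library. AT1G07920 supplied 9.49 to 10.8% in fip37-4 LEC1:FIP37 and 8.86 to 8.87% in wild-type. The shares of AT1G07930 were 12.04 to 12.59% in fip37-4 LEC1:FIP37 and 11.55 to 11.95% in wild-type, narrowly apart, while those of AT1G07940 overlapped. These shares were not tested.

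**Figure D2:**
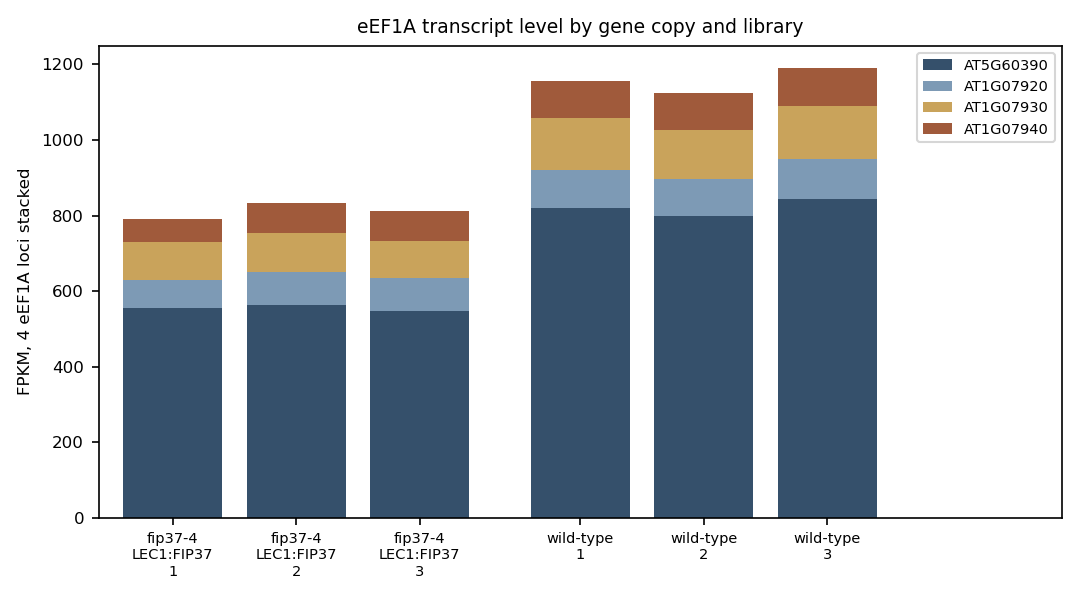
Level of the 4 eEF1A loci stacked in FPKM (y axis, from 0) for each library, with the 3 fip37-4 LEC1:FIP37 libraries left of the 3 wild-type libraries. The stacks reach 792 to 833 FPKM in fip37-4 LEC1:FIP37 and 1124 to 1191 FPKM in wild-type, with AT5G60390 the largest part of each.

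eEF2, the factor of translocation, had 197.1, 236.1 and 225.4 FPKM in fip37-4 LEC1:FIP37 and 298.2, 296.4 and 308.3 FPKM in wild-type. Wild-type libraries were tightly grouped and all higher. The mean fell by 27.1%, with a log2 fold change of -0.46 with an SE of 0.069 (adjusted p = 0.000579 by limma), and the call held after quantile normalization at -0.28. A second gene of the family, AT3G12915, rose at a low level, with 2.09 ± 0.049 FPKM in fip37-4 LEC1:FIP37 and 1.29 ± 0.12 FPKM in wild-type (SD, n = 3 each; log2 fold change 0.54, limma adjusted p = 0.000933). LOS1 held 98.9 to 99.1% of the sum of both genes in fip37-4 LEC1:FIP37 and 99.5 to 99.6% in wild-type.

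eIF5A-1, the member with the lowest level, had 4.22, 6.52 and 7.65 FPKM in fip37-4 LEC1:FIP37 and 6.79, 6.03 and 6.31 FPKM in wild-type. The fip37-4 LEC1:FIP37 libraries spanned the whole wild-type range. The log2 fold change was -0.09 with an SE of 0.19 (adjusted p = 0.712 by limma), and it was 0.14 without fip37-4 LEC1:FIP37 replicate 1 and 0.14 once a dependence on transcript length had been taken out, not called in either. About 108 to 196 fragments stood behind each of its values, judged from the size of the smallest steps in each file. Most eIF5A transcript came from a paralogue, FBR12 (AT1G26630), which fell to 228 ± 14 FPKM in fip37-4 LEC1:FIP37, against 358 ± 1.5 FPKM in wild-type (SD, n = 3 each; log2 fold change -0.65, limma adjusted p = 2.54e-05). The third gene, ELF5A-3 (AT1G69410), was at 52.8 ± 4.4 FPKM in fip37-4 LEC1:FIP37 and 52.5 ± 0.70 FPKM in wild-type (SD, n = 3 each; limma adjusted p = 0.964), but it was called higher after quantile normalization, at 0.24. Summed over the 3 genes, eIF5A had 265 to 306 FPKM in fip37-4 LEC1:FIP37 and 416 to 419 FPKM in wild-type.

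eIF4E, which binds the cap, showed the largest difference of the 9 loci. Its level was 13.5, 15.3 and 17.2 FPKM in fip37-4 LEC1:FIP37 and 28.2, 33.2 and 31.7 FPKM in wild-type. The highest fip37-4 LEC1:FIP37 library was well below the lowest of wild-type, and the mean fell by 50.6%. The log2 fold change was -0.998 with an SE of 0.092 (adjusted p = 4.45e-05 by limma), with a range of -1.08 to -0.91 when each library was left out in turn, -0.85 after quantile normalization and -0.78 with the length dependence taken out, called each time. An estimated 362 to 489 fragments in fip37-4 LEC1:FIP37 and 820 to 1049 fragments in wild-type lay behind these values.

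The cap-binding partner of the second complex moved the same way. eIF(iso)4E (AT5G35620, LSP1) fell to 23.7 ± 1.5 FPKM in fip37-4 LEC1:FIP37, against 43.3 ± 0.54 FPKM in wild-type (SD, n = 3 each; log2 fold change -0.86, limma adjusted p = 5.57e-06). A weaker eIF4E-family gene, AT1G29550, rose to 5.75 ± 0.61 FPKM in fip37-4 LEC1:FIP37, against 3.58 ± 0.34 FPKM in wild-type (SD, n = 3 each; log2 fold change 0.61). Over these and the fourth gene of the group, AT1G29590, cap-binding transcripts summed to 43.2 to 48.5 FPKM in fip37-4 LEC1:FIP37 and 75.9 to 81.2 FPKM in wild-type. eIF4E itself gave 31.2 to 35.4% of this sum in fip37-4 LEC1:FIP37 and 37.2 to 40.8% in wild-type, a separation that was not tested. The scaffold EIF4G (AT3G60240) was called higher, with 21.4 ± 1.2 FPKM in fip37-4 LEC1:FIP37 and 18.2 ± 0.058 FPKM in wild-type (SD, n = 3 each; log2 fold change 0.23, limma adjusted p = 0.00561), and the value was -0.03, not called, with the length dependence taken out. eIFiso4G1 (AT5G57870), the scaffold of the second complex, had a log2 fold change of -0.37 (limma adjusted p = 0.00154).

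eIF4A1, the helicase, differed little. Its values were 101.7, 119.9 and 117.6 FPKM in fip37-4 LEC1:FIP37 and 127.8, 127.5 and 132.1 FPKM in wild-type. Replicate 1 of fip37-4 LEC1:FIP37 was the lowest, and replicates 2 and 3 came near to wild-type without reaching it. The log2 fold change was -0.19 with an SE of 0.066 (adjusted p = 0.0318 by limma), and -0.12, still called, without that replicate. The call was lost without any 1 of the wild-type libraries (limma adjusted p from 0.0704 to 0.0983), and after quantile normalization the value was 0.11 (limma adjusted p = 0.068). Its close paralogue EIF4A-2 (AT1G54270) likewise had a log2 fold change of -0.20 (limma adjusted p = 0.0033), and 0.01 after quantile normalization. eIF4A1 held 69.1 to 71.9% of the sum over 3 eIF4A genes in fip37-4 LEC1:FIP37 and 70.2 to 70.9% in wild-type, so its share overlapped between groups.

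PAB2, a main poly(A)-binding protein of vegetative tissue, had 123.1, 133.5 and 130.4 FPKM in fip37-4 LEC1:FIP37 and 147.6, 143.8 and 148.8 FPKM in wild-type. The groups were apart by a gap about as wide as the spread within fip37-4 LEC1:FIP37. The mean fell by 12.1% and the log2 fold change was -0.19 with an SE of 0.048 (adjusted p = 0.00938 by limma). Quantile normalization turned the direction, to 0.11 with a call (limma adjusted p = 0.0308). The direction of PAB2 thus differed between these scalings.

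Among its paralogues PAB2 took a larger share. PAB4 (AT2G23350) fell to 28.4 ± 2.2 FPKM in fip37-4 LEC1:FIP37, against 68.8 ± 2.0 FPKM in wild-type (SD, n = 3 each; log2 fold change -1.26, limma adjusted p = 2.15e-06), and PAB8 (AT1G49760) to 28.0 ± 1.5 FPKM in fip37-4 LEC1:FIP37, against 42.8 ± 1.0 FPKM in wild-type (SD, n = 3 each; log2 fold change -0.60, limma adjusted p = 2.52e-05). PAB2 supplied 68.9 to 69.7% of the sum over 8 PAB genes in fip37-4 LEC1:FIP37 and 56.5 to 56.9% in wild-type. The separation is many times the range within either group, and it was not tested. The remaining PAB genes, among them PAB3 and PAB5 of reproductive tissue, stayed below the filter, and PAB1 was listed at 0 in all 6 libraries.

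**Figure D3:**
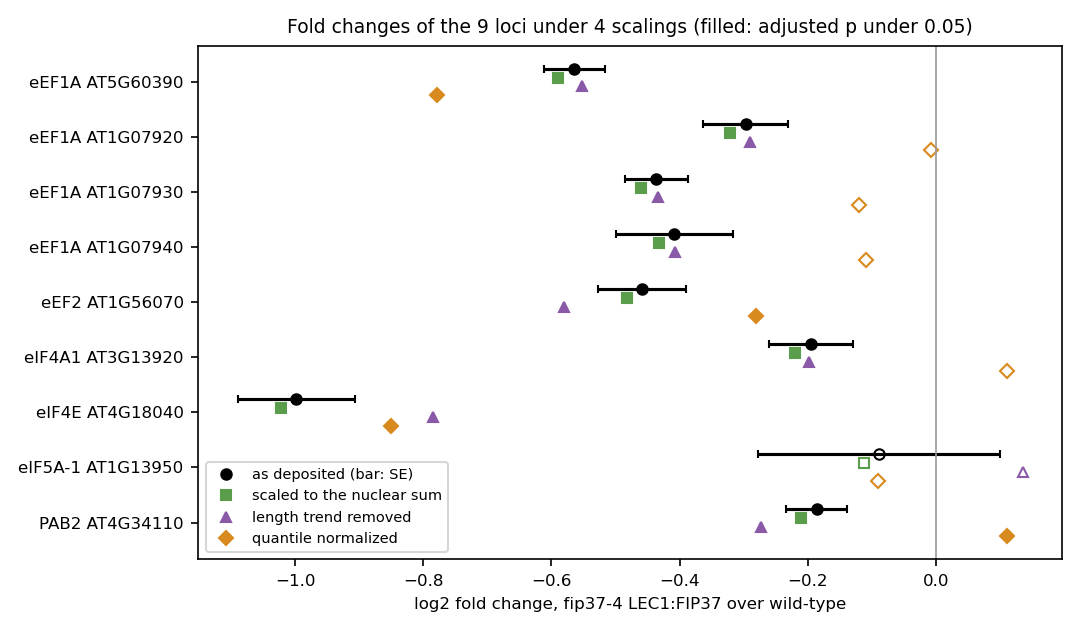
log2 fold change of fip37-4 LEC1:FIP37 over wild-type (x axis) for the 9 loci under 4 scalings of the libraries; circles carry the SE, and filled symbols mark an adjusted p under 0.05. AT5G60390, eEF2 and eIF4E stay called below 0 under all 4, whereas quantile normalization puts eIF4A1 and PAB2 at 0.11.

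By level, the order in fip37-4 LEC1:FIP37 was AT5G60390, eEF2, PAB2, eIF4A1, AT1G07930, AT1G07920, AT1G07940, eIF4E and eIF5A-1. In wild-type the order differed at 1 place, with AT1G07930 above eIF4A1. The mean levels ran from 555 to 6.13 FPKM in fip37-4 LEC1:FIP37 and from 821 to 6.38 FPKM in wild-type. Neighbours whose ranges overlapped were eIF4A1 and AT1G07930, and AT1G07920 and AT1G07940, in both groups.

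**Figure D4:**
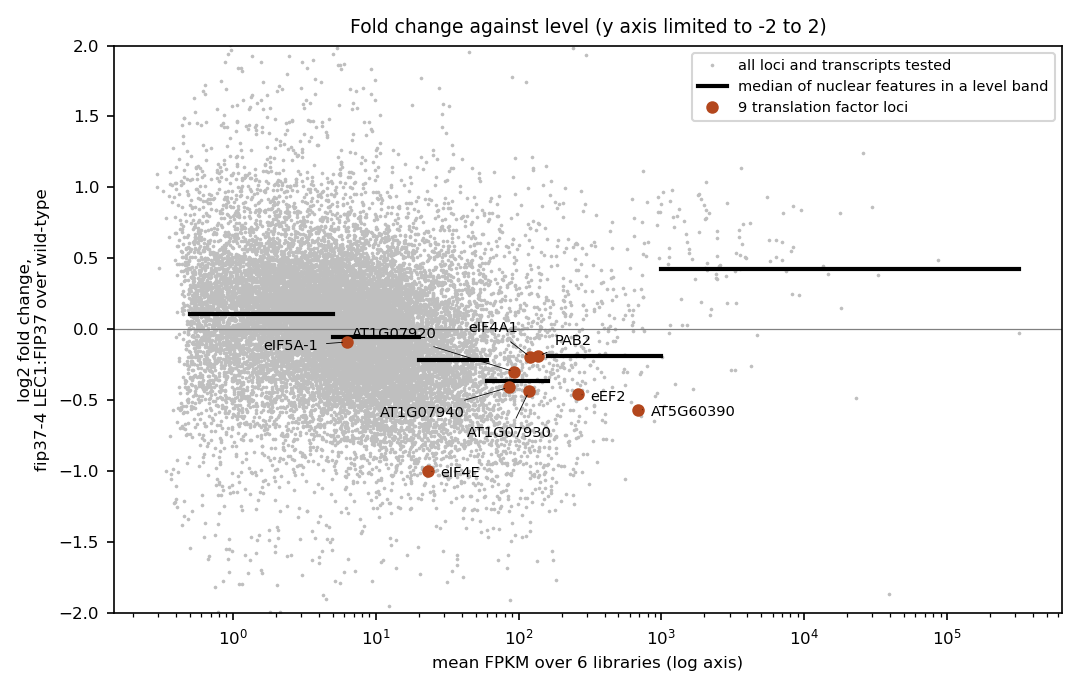
log2 fold change of fip37-4 LEC1:FIP37 over wild-type (y axis, points beyond its ends not drawn) against the mean FPKM over 6 libraries (x axis, log scale) for all features tested, with the 9 loci in red and the median of nuclear features in each level band as black lines. The band of 60 to 160 FPKM has a median of -0.36, with AT1G07920, eIF4A1 and PAB2 above that line, and eIF4E lies far below the line of its band at -0.22.

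The files list 16 transcripts of the 9 loci, and 13 passed the filter when each was fitted on its own. Of these, 8 were called lower and 0 higher, where 25.1% of all 23001 transcripts tested were lower and 21.2% higher. The 8 forms do not match the 8 loci called lower. They include both forms of AT1G07940, while AT3G13920.1, the main form of eIF4A1, was not called (limma adjusted p = 0.0931). AT5G60390.1, the main form, had 553.7, 422.9 and 507.3 FPKM in fip37-4 LEC1:FIP37 and 694.3, 698.6 and 691.7 FPKM in wild-type. AT5G60390.3 was erratic in fip37-4 LEC1:FIP37, with 0.523, 138.9 and 39.8 FPKM, against 124.3, 99.5 and 152.9 FPKM in wild-type. In fip37-4 LEC1:FIP37 the sum of both forms varied much less than either, with an SD of 7.23 FPKM for the locus and 66.3 FPKM for AT5G60390.1, while in wild-type it varied more than the main form, with SDs of 23.4 and 3.50 FPKM. In eIF4A1 the form AT3G13920.4 took 13.5% of the locus in fip37-4 LEC1:FIP37 replicate 1 and between 1.04 and 1.98% in the other 5 libraries. The minor forms AT1G07930.2 and AT1G07940.2 made up at most 5.35% and 1.87% of their loci.

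Other cytosolic translation factors were also measured. Of 61 tested in 6 lists, 42 were called lower and 6 higher, or 68.9% and 9.84%, with a median log2 fold change of -0.34. After quantile normalization 36 were lower and 8 higher, with a median of -0.21. Over all features the shares were 30.9% lower and 27.6% higher. At 20 to 60 FPKM, where 30 of the 61 lie, 26 were called lower, or 86.7% beside 55.8% of all nuclear features of that band, and at 5 to 20 FPKM 5 of 13 were, or 38.5% beside 36.3%. Neither difference was tested. The lists were drawn up by role with earlier results of these data known.

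Among 9 other elongation genes 6 fell and 2 rose. At 160 to 1000 FPKM 3 of 3 were lower, and at 20 to 60 FPKM 1 of 3, beside 54.4% and 55.8% of nuclear features. After quantile normalization 6 were lower and 3 higher. The eEF1B subunit gene eEF-1Bb1 (AT1G30230), which serves nucleotide exchange on eEF1A, fell to 134.6 ± 20.4 FPKM in fip37-4 LEC1:FIP37, against 260.3 ± 7.13 FPKM in wild-type (SD, n = 3 each; log2 fold change -0.96). The eEF1B gamma gene AT1G57720 had a log2 fold change of -0.72. One eEF1B gene rose, AT5G12110, with 64.8 ± 5.0 FPKM in fip37-4 LEC1:FIP37 and 48.0 ± 2.4 FPKM in wild-type (SD, n = 3 each; log2 fold change 0.43). The other that rose was the second eEF2 gene, AT3G12915.

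In the list of cap binding and mRNA recruitment 5 of 11 tested fell and 2 rose, which were AT1G29550 and EIF4G. At 20 to 60 FPKM 4 of 4 were lower, beside 55.8% of nuclear features. At 5 to 20 FPKM 0 of 2 were lower beside 36.3%, and at 0.5 to 5 FPKM 1 of 5 beside 16.1%. After quantile normalization 4 were lower and 2 higher, and with the length dependence taken out 6 were lower and 1 higher. NCBP (AT5G18110), a further cap-binding protein, was at 20.7 ± 0.12 FPKM in fip37-4 LEC1:FIP37 and 29.9 ± 1.5 FPKM in wild-type (SD, n = 3 each; log2 fold change -0.52). The factors that bring the initiator tRNA and scan for the start codon gave 9 lower and 1 higher of 13 tested. At 20 to 60 FPKM 6 of 6 were lower, and at 5 to 20 FPKM 1 of 4, beside 55.8% and 36.3% of nuclear features. After quantile normalization 8 were lower and 2 higher. EIF2 BETA (AT5G20920), a subunit of the factor that carries the initiator tRNA, fell to 21.4 ± 2.6 FPKM in fip37-4 LEC1:FIP37, against 42.1 ± 0.42 FPKM in wild-type (SD, n = 3 each; log2 fold change -0.96). AT2G04520, of the eIF1A family, and eIF6A (AT3G55620), which keeps ribosomal subunits apart, had log2 fold changes of -0.66 and -0.52. The gene that rose was AT1G54290, of the SUI1 family of start-site factors, with a log2 fold change of 0.25.

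Of 20 tested subunit genes of eIF3, the large complex on the small ribosomal subunit, 16 fell and 0 rose. At 20 to 60 FPKM, where 13 of the 20 lie, 11 were called lower, or 84.6% beside 55.8% of nuclear features. That difference was not tested. After quantile normalization 12 of the 20 were lower and 0 higher, with a median log2 fold change of -0.15 in place of -0.32. AT5G37475, an eIF3 subunit gene, fell to 14.0 ± 2.4 FPKM in fip37-4 LEC1:FIP37, against 26.4 ± 1.1 FPKM in wild-type (SD, n = 3 each; log2 fold change -0.90). EIF3K (AT4G33250) and AT2G46290, the weaker of the paired genes for subunit i, had log2 fold changes of -0.65 and -0.84. In the list of release factors and hypusine enzymes 4 of 6 fell and 1 rose, also after quantile normalization. At 20 to 60 FPKM 2 of 2 were lower, and at 5 to 20 FPKM 1 of 3, beside 55.8% and 36.3% of nuclear features. AT3G58180, which encodes the hydroxylase that completes hypusine on eIF5A, the release factor gene ERF1-2 (AT1G12920) and AT1G18070, which encodes an eRF3-like GTPase, had log2 fold changes of -0.51, -0.41 and -0.38. ERF1-1 (AT5G47880), a second release factor gene, rose by 0.25 on the log2 scale. Values of single genes in paired copies are uncertain where the copies share reads.

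**Figure D5:**
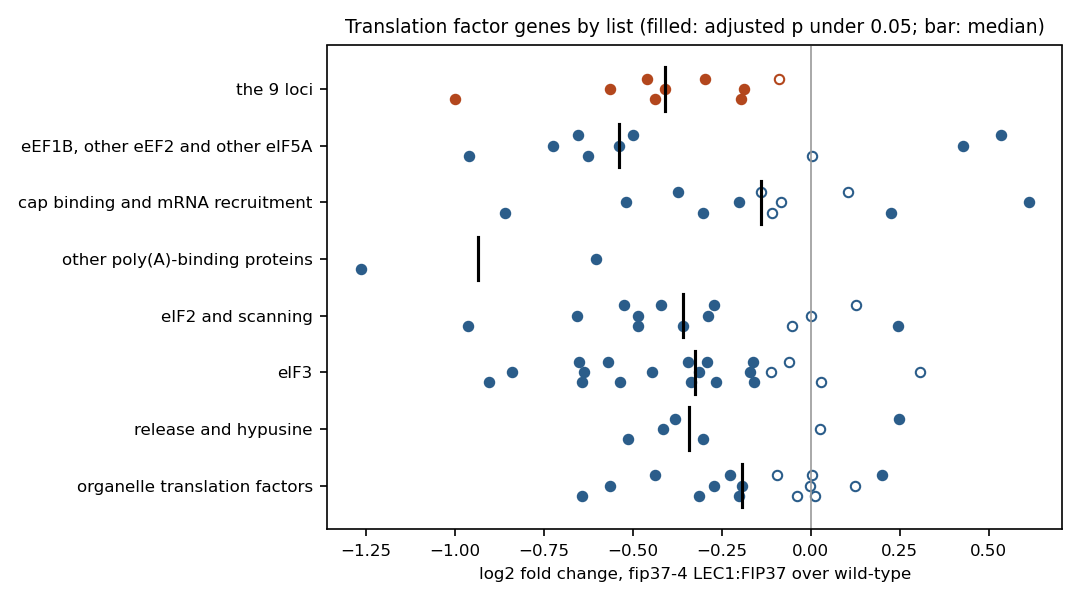
log2 fold change of fip37-4 LEC1:FIP37 over wild-type (x axis) for the 9 loci, 6 lists of other cytosolic translation factors and the organelle translation factors; each circle is a gene tested, filled where the adjusted p was under 0.05, and the bar is the median. Medians lie below 0 in every row, from -0.93 for the 2 tested poly(A)-binding genes to -0.14 for cap binding and mRNA recruitment.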

How the data were processed

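RNA from 6 libraries of whole seedlings was sequenced with a strand-specific kit after removal of ribosomal RNA, per the labels' protocols. The authors deposited FPKM for each of 36104 transcripts per library; TopHat2 2.0.9, Cufflinks 2.1.1 and the build TAIR10 are named in the submitters' processing notes. The files name no unit, which was taken from Cufflinks and the values. No source used here gives the strand setting, the treatment of shared reads or the fragment numbers. At about 1000 nt a single fragment was worth 0.0305 to 0.0424 FPKM, judged by the lowest steps. The members and lists were chosen with earlier results of these data known.

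FPKM of the transcripts of a locus were summed. Names, lengths and overlaps came from RefSeq (TAIR10.1, 26701 loci matched); the build differs in name from that of the files, so no coordinates or sequences are printed. limma 3.58.1 (R 4.3.3, mean-variance trend, robust empirical Bayes) was fitted to log2(FPKM + 0.5) with genotype as the only term. A feature was kept where 3 or more libraries reached 0.5 FPKM, which left 19383. The added 0.5 makes fold changes of low genes too small. The p-values were adjusted by Benjamini-Hochberg, and the procedure was tested on simulated data. No count model was run, since FPKM are not counts. Alternatives were pseudocounts of 0.1 and 1 FPKM, no filter and a filter of 1 FPKM, quantile normalization, scaling to the nuclear sum, length dependence taken out by lowess, plain empirical Bayes, a replicate block, the highest transcript of each locus and leaving out each library.

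Named besides the 9 loci and FIP37 were up to 3 called genes of each list with the largest absolute log2 fold change, and the 3 loci most like the eEF1A sum. AT3G12915, ELF5A-3, AT1G29590, EIF4G, eIFiso4G1, EIF4A-2, AT5G12110, AT1G54290, ERF1-1, AT5G60400, RBCS1A, CYCB3;1, PYK10, CASP1, EXPA7, PAB1, PAB3 and PAB5 were chosen after values were seen, as were the level bands. Of 68 genes in the 6 lists 67 were in the files, and AT1G36730 was not analysed here.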

Additional observations from a re-analysis of the deposited data

How the results depend on the processing

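Pseudocount, filter, nuclear sum scaling and replicate block left all 8 lower calls of the 9 loci in place. Quantile normalization gave 3 lower and 1 higher, with log2 fold changes of -0.0072 for AT1G07920 (limma adjusted p = 0.90), -0.12 for AT1G07930 (0.057), -0.11 for AT1G07940 (0.242), 0.11 for eIF4A1 (AT3G13920, 0.068) and 0.11 for PAB2 (AT4G34110, 0.0308), and a log2 ratio of the eEF1A sum of -0.58 in place of -0.51; the cause was not tested. eIF4A1 also lost its call with plain empirical Bayes (-0.19, 0.0581), with its highest transcript alone (-0.26, 0.0931) and without any 1 wild-type library; with each library left out its log2 fold change ran from -0.24 to -0.12. eIF5A-1 (AT1G13950) ran from -0.26 to 0.14 in the same way, and was at 0.14 with the length trend removed. The members called lower numbered 7 to 8 with 1 library left out and 7 with plain empirical Bayes.

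Same-numbered libraries of the groups did not deviate together (correlations of deviations -0.028, -0.049 and -0.057), and no library correlated best with its own number. With the replicate block 5075 features were higher and 5804 lower, in place of 5358 and 5999. Of the members, eIF5A-1 had the fewest estimated fragments, 108 to 196 in fip37-4 LEC1:FIP37 and 164 to 186 in wild-type. Its SD was 1.75 FPKM in fip37-4 LEC1:FIP37 and 0.38 FPKM in wild-type. Whether depth limits its result was not tested.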

Other observations

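Translation factors of the organelles, which are nuclear genes for protein synthesis in chloroplasts and mitochondria, were called lower for 8 of 15 tested and higher for 1, with a median log2 fold change of -0.19. Over all features 30.9% were lower and 27.6% higher, and at 20 to 60 FPKM, where 7 of the 15 lie, 4 of them were lower, or 57.1% beside 55.8% of the nuclear features there. At 5 to 20 FPKM 3 of 5 were lower, or 60% beside 36.3%. At 60 to 160 FPKM 1 of 2 was lower beside 64.3%, and at 160 to 1000 FPKM 0 of 1 beside 54.4%. These differences were not tested. After quantile normalization 5 were lower and 3 higher, and with the length dependence taken out 7 were lower and 0 higher. RRF (AT3G63190), the ribosome recycling factor of the chloroplast, fell to 44.0 ± 2.1 FPKM in fip37-4 LEC1:FIP37, against 69.0 ± 0.96 FPKM in wild-type (SD, n = 3 each; limma adjusted p = 1.40e-05). AT4G11120, an elongation factor Ts gene, and AT4G30690, an initiation factor 3 gene, had log2 fold changes of -0.56 and -0.44.

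Of 9 genes often used as references in quantitative PCR, 6 were called lower and 0 higher, with a median log2 fold change of -0.30, beside 30.9% lower and 27.6% higher over all features. At 5 to 20 FPKM 3 of 4 were lower, at 20 to 60 FPKM 2 of 2 and at 160 to 1000 FPKM 1 of 3. Of nuclear features in these bands 36.3%, 55.8% and 54.4% were lower. After quantile normalization 4 were lower and 1 higher, with a median of -0.079, and with the replicate block 6 were lower and 1 higher. Without fip37-4 LEC1:FIP37 replicate 1, 6 were lower and 2 higher. The eEF1A gene AT5G60390, itself such a reference, was at -0.56.

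The loci whose levels followed the eEF1A sum most closely over the 6 libraries, among 11102 annotated loci with a mean of at least 5 FPKM, were HST (AT3G11945), annotated as a homogentisate prenyltransferase, ERS (AT5G64050), a glutamate tRNA synthetase, and AT5G45590, annotated as ribosomal protein L35. Their root mean square differences in centred log2 level were 0.0127, 0.0137 and 0.0152. As many as 250 loci lay within 0.05, so this likeness marks no small group.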
